A study of Mus musculus with 8 samples.

Results

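The genes described here are 10 members of the NF-kB pathway in mouse satellite cells, the stem cells of skeletal muscle. They are 4 subunit genes (Nfkb1, Nfkb2, Rela, Relb), 2 inhibitor genes (Nfkbia, Tnfaip3), the adaptor gene Traf1, the adhesion molecule gene Icam1 and the cytokine genes Il1b and Il33. All 10 members were found by symbol among 21887 protein-coding genes of RefSeq on GRCm38.p6, the assembly behind mm10. They were taken by name, and no measured value entered the rule, but the list was chosen with earlier results of these data known. The samples, from C57BL/6 skeletal muscle, comprised activated satellite cells (ASC), taken 2.5 days after injury with BaCl2, a salt that kills muscle fibres, and freshly isolated satellite cells (FISC) from untreated muscle. Each condition had 2 libraries for H3K27ac, the acetylation of histone H3 at lysine 27 found at active promoters and enhancers, and 2 input libraries with no antibody, which entered no test. The labels give no age or sex, and do not say whether replicates came from separate animals or from pooled ones, so p-values measure only the spread between these libraries. The labels do not say how the cells were sorted.

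What was measured is breadth, the kb of sequence under the authors' peaks in each library. It was summed in end windows (2 kb to either side of both gene ends), in the gene body more than 2 kb inside both ends, and in flanks from 2 to 50 kb outside the gene, whichever other genes lie there. ASC lists held 50154 and 54700 peaks over 49.2 and 57.7 Mb, against 45014 and 43092 peaks over 34.4 and 33.7 Mb in FISC, and the files give no read depth. Differences are ASC minus FISC in kb. A gene is said to be called, to rise or to fall only where limma, a linear model fitted over all genes covered in at least 2 libraries, gave a Benjamini-Hochberg adjusted p under 0.05. An exact permutation test of 2 against 2 libraries cannot go below 0.333, so none is given for single genes. Genes uncovered in both FISC libraries entered the limma test through ASC coverage alone, so the sign of their difference was set beforehand. Among members these were Traf1 in end windows and body, Il1b in end windows and flanks, and Il33 in end windows. Values below of Tank and Tnfsf11 (end windows), Il1rap (body) and Nfkbiz (flanks) are of this kind. The counts of pathway genes by role also hold such genes, as do the shares of all genes, which passed the same filter. Breadth sums over all cells of a library, so fewer cells carrying the mark and less of the mark per cell cannot be told apart.

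NF-kB proteins are dimers of Rel-family subunits. Inhibitors of the IkB family hold them in the cytoplasm until kinases, activated by receptors for tumour necrosis factor, interleukin 1 or microbial products, mark the inhibitor for destruction. Freed dimers enter the nucleus and bind kappaB sites, and among the genes they switch on are their own inhibitors, which makes the pathway turn itself down. In skeletal muscle the pathway is known for its part in inflammation after injury and in wasting.

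The promoters below show where kappaB matches lie at the subunit and inhibitor genes that carry them, with the promoter of Traf1, whose coverage differed between the conditions over all of its length. They are RefSeq sequences on GRCm38.p6, 300 bases each, from 250 before to 50 after an annotated start, 5′ to 3′ on the gene's strand, with matches to the kappaB consensus on either strand in capitals.
Nfkb2, first start, chr19:46304487-46304786, plus strand: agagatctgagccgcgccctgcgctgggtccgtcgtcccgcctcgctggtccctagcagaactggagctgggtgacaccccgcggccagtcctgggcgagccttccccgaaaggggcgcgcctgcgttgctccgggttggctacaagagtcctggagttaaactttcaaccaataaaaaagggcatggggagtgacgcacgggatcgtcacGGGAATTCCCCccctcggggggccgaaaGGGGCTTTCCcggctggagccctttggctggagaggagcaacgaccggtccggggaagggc
Nfkb2, second start, chr19:46305445-46305744, plus strand: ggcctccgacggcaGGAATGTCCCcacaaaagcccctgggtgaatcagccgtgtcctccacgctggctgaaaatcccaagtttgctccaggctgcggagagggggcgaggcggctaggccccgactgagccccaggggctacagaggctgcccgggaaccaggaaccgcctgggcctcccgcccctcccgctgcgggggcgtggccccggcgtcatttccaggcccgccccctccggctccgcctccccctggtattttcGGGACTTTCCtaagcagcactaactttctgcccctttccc
Nfkbia, chr12:55492598-55492897, minus strand: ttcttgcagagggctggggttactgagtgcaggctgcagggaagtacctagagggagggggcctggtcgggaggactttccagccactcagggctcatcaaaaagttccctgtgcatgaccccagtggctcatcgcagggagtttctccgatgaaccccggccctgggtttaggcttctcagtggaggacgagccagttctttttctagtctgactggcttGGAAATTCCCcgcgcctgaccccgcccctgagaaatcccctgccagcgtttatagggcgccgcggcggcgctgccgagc
Tnfaip3, chr10:19015361-19015660, minus strand: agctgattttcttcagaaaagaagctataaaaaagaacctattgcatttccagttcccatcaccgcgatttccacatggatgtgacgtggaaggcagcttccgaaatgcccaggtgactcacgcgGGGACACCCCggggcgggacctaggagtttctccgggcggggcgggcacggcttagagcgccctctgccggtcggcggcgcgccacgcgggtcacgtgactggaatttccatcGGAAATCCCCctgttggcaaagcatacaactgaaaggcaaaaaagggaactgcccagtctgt
Traf1, chr2:34961723-34962022, minus strand: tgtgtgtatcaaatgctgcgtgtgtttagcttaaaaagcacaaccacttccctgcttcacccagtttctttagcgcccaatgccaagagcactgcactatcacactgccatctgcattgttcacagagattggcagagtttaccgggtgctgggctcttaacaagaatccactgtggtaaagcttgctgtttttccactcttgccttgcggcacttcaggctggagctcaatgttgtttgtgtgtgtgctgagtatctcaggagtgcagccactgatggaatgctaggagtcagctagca
In the first Nfkb2 promoter the capitals joined 2 overlapping matches, GGGAATTCCC and GGAATTCCCC, and set apart GGGGCTTTCC, which starts 11 bases before the transcription start. In the second, GGGACTTTCC starts 10 bases after it. Of the members, 8 matched 12 promoter entries, and Nfkb1 and Relb matched none. A kappaB match stood in 5 entries of 3 members (Nfkb2, Nfkbia, Tnfaip3), and in 4.81% of 21263 mouse promoters of the same length. The second Nfkb2 entry overlaps a further Nfkb2 entry, not printed, and the same GGGACTTTCC site is counted in both. The AP-1 motif TGAGTCA was in the Tnfaip3 promoter shown above and in 4.66% of all. A match is a run of letters and says nothing of binding.

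H3K27ac covered the promoters of Nfkb2, Rela, Nfkbia and Tnfaip3 in both conditions. Peaks spanned all 300 bases of the 3 Nfkb2 promoters, of the Rela promoter and of the Tnfaip3 promoter printed above in each of the 4 libraries. At Nfkbia they spanned 300 and 300 bases in ASC, against 300 and 174 in FISC. At Traf1 they spanned 300 and 300 bases in ASC, against 0 and 0 in FISC. Traf1 was thus the member whose promoter was wholly covered in ASC and uncovered in FISC. The Il1b promoter and both Il33 promoters were uncovered in all 4 libraries, and the Icam1 promoter was touched over 69 and 0 bases in ASC, against 189 and 0 in FISC. A second Tnfaip3 entry had 0 and 0 bases in ASC, against 0 and 200 in FISC. Peaks touched 51.9 and 53.2% of all promoters in ASC, against 50.7 and 49.4% in FISC. They spanned all 300 bases of 37.8 and 41.0% of promoters in ASC, against 31.3 and 29.9% in FISC.

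Around and within the 10 genes, breadth was mostly higher in ASC, and most often in the flanks. In flanks, 7 of 10 members rose (Nfkb1, Nfkbia, Tnfaip3, Traf1, Icam1, Il1b, Il33), with 46.0% of all 15985 genes tested called higher. In bodies, 4 of 6 tested members rose (Nfkb1, Tnfaip3, Traf1, Il1b), with 42.8% of 6528 genes. In end windows, 4 of 9 tested members rose (Nfkbia, Traf1, Icam1, Il33), with 26.5% of 12924 genes. In all, 7 members were called higher in at least 1 measure, with 56.7% of the 17511 genes tested in any, and the subunit genes Nfkb2, Rela and Relb in none. No member fell, where 5.71% of all genes fell in flanks, 9.73% in bodies and 3.61% in end windows. The shares of members called higher lie above those of all genes in each measure, over at most 10 genes chosen with earlier results known. Among the called members, the sign was set beforehand at Traf1 and Il33 in end windows, Traf1 in bodies and Il1b in flanks. The comparison thus gives no support of its own, and the same coverage filter applied to all genes.

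The ASC values were both above the FISC values at 9 of 10 members in flanks, 5 of 6 in bodies and 6 of 9 in end windows. The same held for 68.7%, 64.1% and 62.1% of all genes tested. The ASC values were both below the FISC values at 1 member in end windows (Nfkb1) and 1 in bodies (Il33), against 11.0% and 16.9% of all genes, and at 0 members in flanks, against 11.1%. The median difference of the members was 3.74 kb in flanks, 1.07 kb in bodies and 0.416 kb in end windows, beside 0.963, 0.526 and 0.304 kb for all genes tested. Without either FISC library no gene of the whole table passed in end windows (3943 without FISC replicate 1 and 3759 without replicate 2 at an unadjusted p under 0.05) or in bodies (2644 and 2602). The members' adjusted p-values by limma then lay between 0.0797 and 0.214 where they had been called. In flanks 5 members were still called without each in turn.

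**Figure D1:**
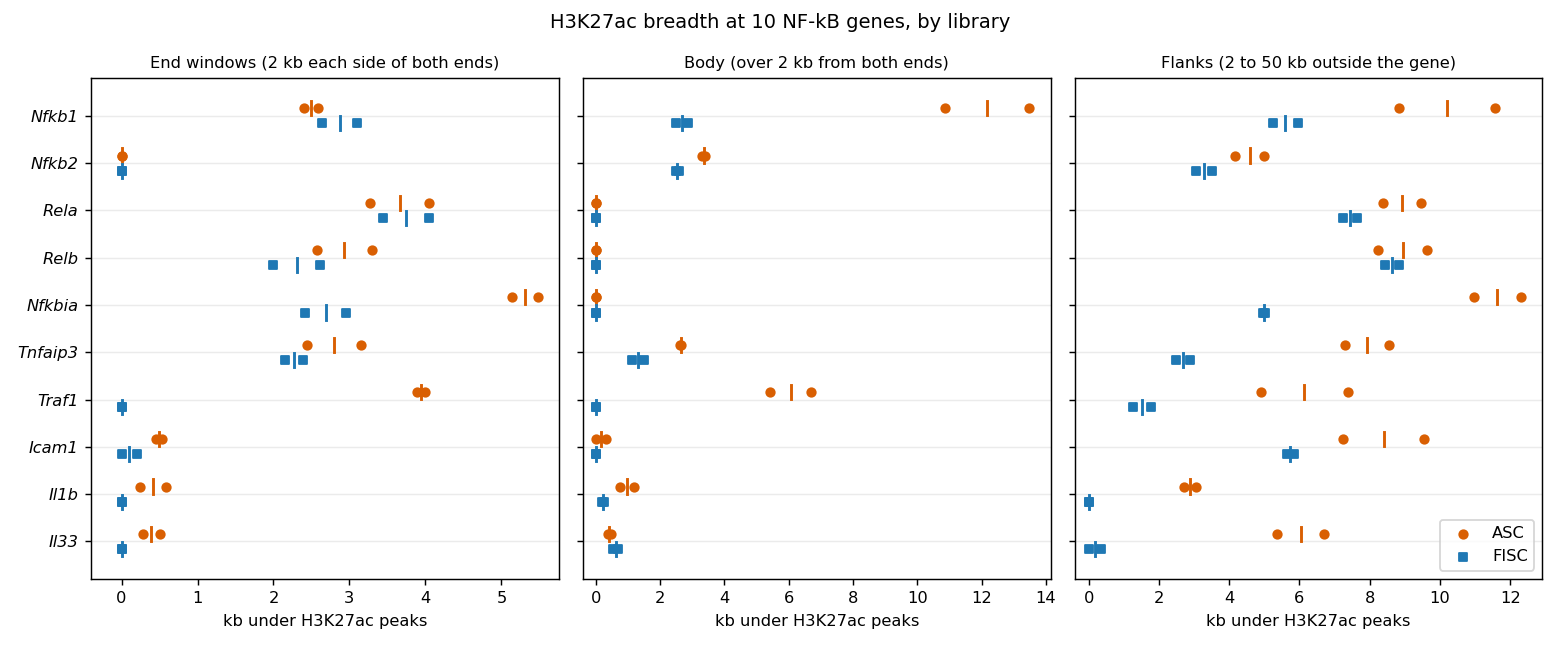
H3K27ac breadth (kb under peaks) of the 10 members in end windows, body and flanks, with 1 point per library (orange circles ASC, blue squares FISC) and a bar at the mean of 2. In flanks the ASC points lie to the right of the FISC points at every member but Relb; after division by each library's total covered length the means of Nfkb2, Rela, Relb and Icam1 were lower in ASC.

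Total covered length differs between the conditions, and dividing by it moves every value. After that scaling the median difference of all genes was -0.345 kb in end windows, 0.157 kb in bodies and -0.259 kb in flanks. Of all called genes, 20.1% were then higher in end windows (88.0% without scaling), 63.8% in bodies (81.5%) and 44.1% in flanks (89.0%). Members higher and lower were then 3 and 3 in end windows, 3 and 1 in bodies, and 5 and 2 in flanks. All genes called higher and lower were then 9.19% and 36.6% in end windows, 36.0% and 20.5% in bodies, and 24.5% and 31.1% in flanks. Traf1 was called higher in all 3 measures under scaling, Nfkbia, Tnfaip3, Il1b and Il33 in flanks, Nfkb1 in its body, Il1b in its body and end windows, and Il33 in its end windows. Nfkb1, Rela and Tnfaip3 were called lower in end windows, Il33 in its body, and Rela and Relb in flanks. As another alternative, each list was cut, most significant q first, to the covered length of the shortest list. This kept 18090 and 14488 peaks in ASC, against 42792 and 43092 in FISC. The less significant peaks were thus dropped mostly from ASC. Lists cut to equal covered length left 54.7% of calls higher in end windows, 38.3% in bodies and 46.6% in flanks, and members higher and lower of 2 and 1, 3 and 2, and 2 and 0. The Traf1 difference in flanks kept its call in 18 of 18 alternatives and that of Il1b in 15 of the 15 in which it was tested. Il1b flanks held 0 and 0 kb in FISC, so the sign of their difference was set beforehand. Where ASC peaks there were lost, the gene left the test, so its count does not measure how firm the call is. On lists of equal covered length, with genes covered in 4 libraries and within 20 kb, the Il1b flanks fell below the coverage filter and were not tested.

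**Figure D2:**
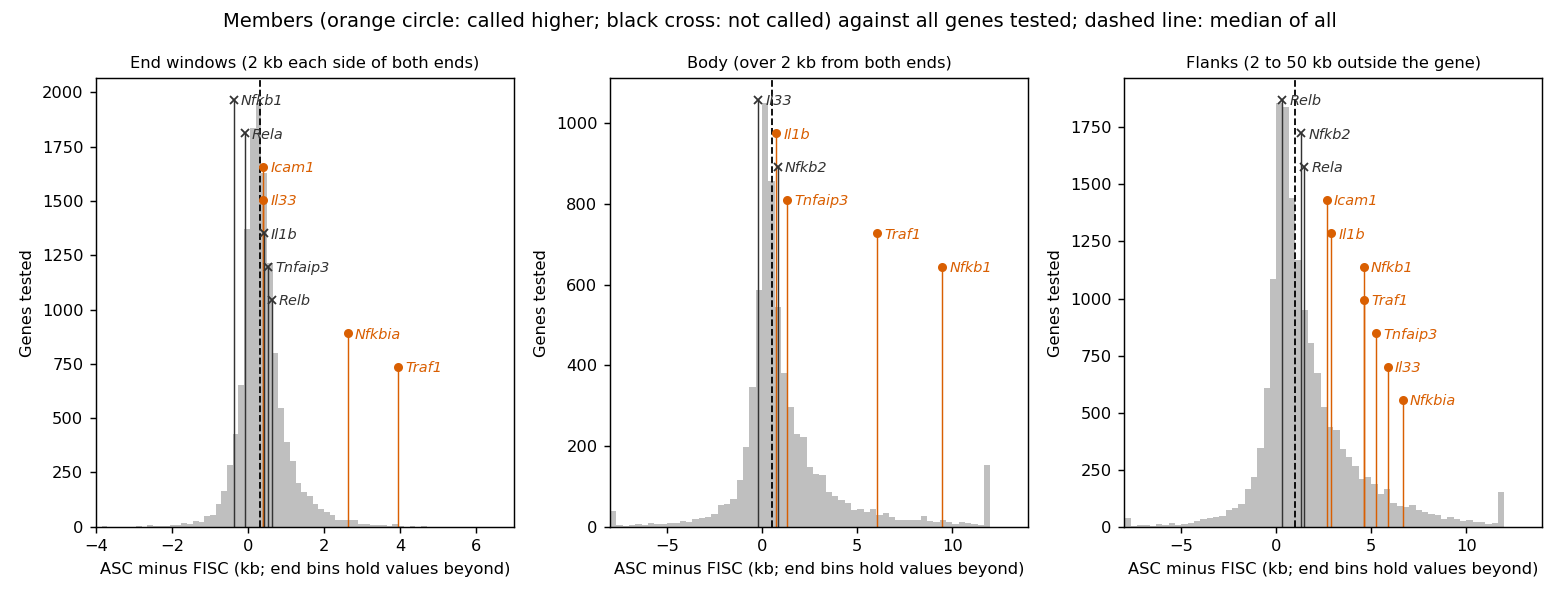
Differences in breadth (ASC minus FISC, kb) of the members, as stems (orange circles called higher, black crosses not called; stem height has no meaning), over a histogram of all genes tested in each measure, with a dashed line at the median of all. Traf1 at 3.94 kb stands at the right of the end windows and Nfkb1 at 9.47 kb at the right of the bodies; dividing by total covered length would move the dashed lines to -0.345, 0.157 and -0.259 kb.

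Among the subunit genes, Nfkb1 gained breadth inside the gene and around it, while the difference at its ends was not called. Nfkb1 (chr3:135584655-135691969) encodes a precursor that is cut to a DNA-binding subunit without an activation domain of its own. Its body held 10.8 and 13.5 kb under peaks in ASC, against 2.87 and 2.50 kb in FISC. The groups lie far apart, the mean was 4.53 times as high in ASC, and 96.7% of genes tested had a smaller difference (9.47 kb, SE 1.08, limma adjusted p = 0.00702). The call held under scaling by total covered length (6.48 kb) and was lost without either FISC library (adjusted p = 0.0981 and 0.103 by limma).

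Most of the Nfkb1 gain lay in 1 region inside the gene, chr3:135669383-135676129, between 84.7 and 91.5 kb from its lower-coordinate end. It was covered over 6.27 and 6.75 kb in ASC, against 1.65 and 1.16 kb in FISC. The ASC peaks there ranked 171 of 50154 and 228 of 54700 by width in their lists. Another 3 internal regions were covered in both ASC libraries and in neither FISC library, over 0.208 and 0.625 kb, 0.849 and 1.94 kb, and 0.780 and 1.43 kb. Beyond the higher-coordinate end, chr3:135710498-135713439 was covered over 2.93 and 2.94 kb in ASC, against 0 and 0 kb in FISC. These regions are intragenic or distal by position, and the annotation used gives no exons to place them more closely.

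The flanks of Nfkb1 held 8.82 and 11.6 kb in ASC, against 5.25 and 5.95 kb in FISC, and did not overlap. The rise was 4.59 kb (SE 1.06, limma adjusted p = 0.0137). It missed the threshold without ASC replicate 2 (3.22 kb, adjusted p = 0.0584 by limma), without FISC replicate 1 (0.122) and replicate 2 (0.0740), and under scaling (1.11 kb, 0.147). End windows held 2.40 and 2.59 kb in ASC, against 3.10 and 2.64 kb in FISC. Here both ASC libraries were the lower ones, but the difference of -0.378 kb was not called (adjusted p = 0.218 by limma). At the higher-coordinate end alone, 2.40 and 2.59 kb in ASC overlapped 2.55 and 2.64 kb in FISC.

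Nfkb2 (chr19:46300994-46312400) encodes the precursor of the subunit that the non-canonical pathway, driven by receptors such as that for lymphotoxin, releases. Its body held 3.31 and 3.41 kb in ASC, against 2.58 and 2.50 kb in FISC, nearly all of it in 1 region over the printed promoters (chr19:46303646-46307050). The groups did not overlap, but the difference of 0.818 kb (SE 0.235) missed the threshold (limma adjusted p = 0.0524) and its sign turned under scaling (-0.499 kb). Nothing was covered within 2 kb of either annotated gene end in any library, and the annotated starts of Nfkb2 lie inside the gene. Flanks held 4.17 and 4.998 kb in ASC, against 3.51 and 3.05 kb in FISC, with a difference of 1.30 kb that was not called (adjusted p = 0.0578 by limma) and was -0.125 kb once peaks near the ends of its 5 neighbouring genes were left out.

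Rela and Relb encode subunits that carry activation domains, Rela in the canonical and Relb mainly in the non-canonical pathway, and neither was called in any measure. Rela (chr19:5637442-5648134) had 3.28 and 4.04 kb in its end windows in ASC, against 4.05 and 3.44 kb in FISC. These values overlap (limma adjusted p = 0.865), but the difference was called lower under scaling (-1.82 kb, 0.00701) and on lists of equal covered length (-1.27 kb, 0.0233). The window at the start alone held 2.23 and 2.53 kb in ASC, against 2.27 and 2.64 kb in FISC. Rela flanks had 8.37 and 9.45 kb in ASC, against 7.63 and 7.23 kb in FISC, a difference of 1.48 kb with both ASC libraries higher (limma adjusted p = 0.154), which was -2.23 kb under scaling (0.00834). Relb (chr7:19606217-19629438) had 2.57 and 3.30 kb in its end windows in ASC, against 2.62 and 2.00 kb in FISC, an overlap (0.627 kb, limma adjusted p = 0.203; -0.566 kb under scaling). Relb flanks, which hold ends of 8 other genes, had 8.23 and 9.64 kb in ASC, against 8.44 and 8.84 kb in FISC. The FISC values there lie between those of ASC (0.297 kb, limma adjusted p = 0.791), and the difference was -0.409 kb without ASC replicate 2 and -3.78 kb under scaling (adjusted p = 0.00195 by limma).

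Both inhibitor genes had promoters that FISC already covered, and flanks that rose in breadth. Nfkbia (chr12:55489409-55492647) encodes IkB-alpha, the inhibitor that is destroyed and made anew in each round of signalling. Its end windows, which take in the whole short gene, held 5.48 and 5.14 kb in ASC, against 2.42 and 2.96 kb in FISC. Both ASC libraries were well above both FISC libraries (2.62 kb, SE 0.264, limma adjusted p = 0.00479), and 99.0% of genes tested had a smaller difference. The gain was at both ends, with 3.42 and 3.55 kb in ASC, against 2.42 and 2.40 kb in FISC, at the start and 2.83 and 2.35 kb in ASC, against 0.478 and 1.18 kb in FISC, at the far end. The end-window call was lost when any 1 library was left out (limma adjusted p of 0.0733 and 0.0849 leaving out either ASC library, and 0.0935 and 0.0924 leaving out either FISC library) and under scaling (0.932 kb, 0.108).

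Flanks of Nfkbia, where no other protein-coding gene ends within 50 kb, held 11.0 and 12.3 kb in ASC, against 4.95 and 5.02 kb in FISC. The mean was 2.33 times as high in ASC, with a difference of 6.65 kb (SE 0.810, limma adjusted p = 0.00142), called also under scaling (3.14 kb) and missed on lists of equal covered length (2.55 kb, adjusted p = 0.0549 by limma). The widest region there, chr12:55462476-55468815, lies beyond the far end, from -26.9 to -20.6 kb as measured from there. It was covered over 5.62 and 6.26 kb in ASC, against 3.39 and 3.33 kb in FISC. A region further out was covered over 2.20 and 2.22 kb in ASC, against 1.07 and 1.23 kb in FISC. Both were thus marked in FISC and wider in ASC.

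Tnfaip3 (chr10:19000910-19015410) encodes a ubiquitin-editing enzyme that ends signalling from receptors of tumour necrosis factor and Toll-like receptors. Its end windows held 2.44 and 3.15 kb in ASC, against 2.39 and 2.15 kb in FISC, all of it at the start. Both ASC libraries were higher, but by 0.527 kb, which was not called (limma adjusted p = 0.194) and was -0.633 kb under scaling (0.0415). Its body held 2.63 and 2.65 kb in ASC, against 1.49 and 1.13 kb in FISC, 2.02 times as much in the mean (1.33 kb, SE 0.234, limma adjusted p = 0.0170). The body call was lost without ASC replicate 1 (adjusted p = 0.100 by limma), ASC replicate 2 (0.109), FISC replicate 1 (0.0928) or FISC replicate 2 (0.121), and under scaling (0.494 kb, 0.183).

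Tnfaip3 flanks, again without ends of other genes, held 7.28 and 8.54 kb in ASC, against 2.48 and 2.89 kb in FISC. That is 2.95 times as much in the mean, with the groups far apart (5.23 kb, SE 0.607, limma adjusted p = 0.00121; 3.03 kb under scaling). The largest part came from chr10:19044905-19047917, which starts 29.5 kb upstream of the gene's start and was covered over 2.57 and 3.01 kb in ASC, against 0.640 and 0.617 kb in FISC. On lists of equal covered length the flank difference was 0.430 kb and not called (adjusted p = 0.279 by limma).

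**Figure D3:**
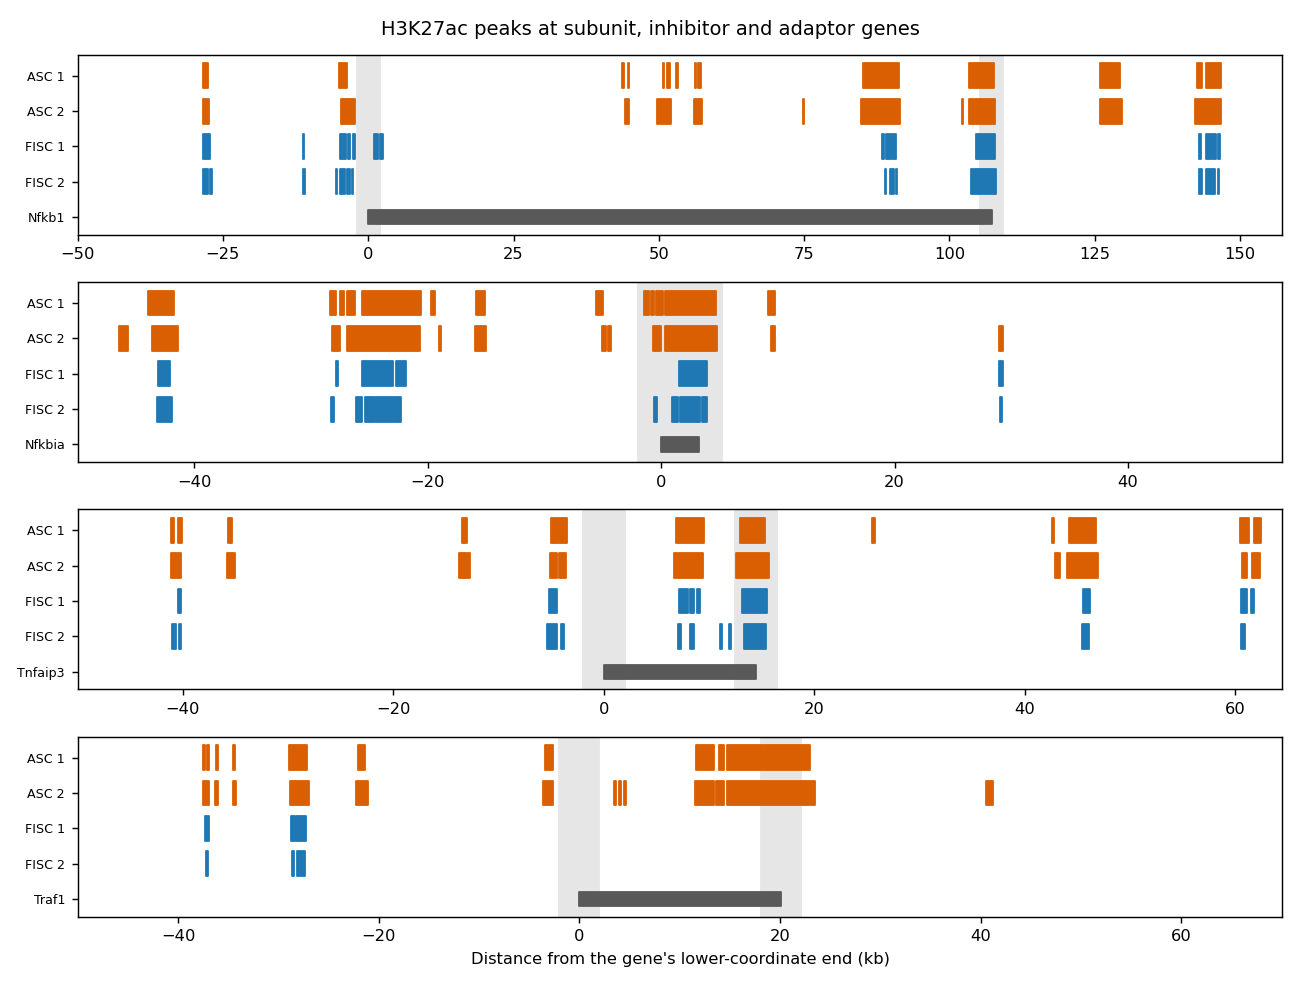
Peaks of each library (orange ASC, blue FISC) at Nfkb1, Nfkbia, Tnfaip3 and Traf1, by distance in kb from the gene's lower-coordinate end; dark bars are genes and grey bands the end windows. Promoters of Nfkbia and Tnfaip3, at the right end of each gene, are covered in all 4 libraries, and that of Traf1, also at the right end, in the ASC libraries only.

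Traf1 had the clearest difference of the members, with peaks over its start in ASC and none in FISC. Traf1 (chr2:34941750-34961812) encodes an adaptor of tumour necrosis factor receptors that is itself a known NF-kB target. Its end windows held 3.89 and 4.0 kb in ASC, against 0 and 0 kb in FISC, all within the 4 kb window at the start. Its body held 5.43 and 6.70 kb in ASC, against 0 and 0 kb in FISC. By limma the end windows rose by 3.94 kb (SE 0.129, adjusted p = 0.00193), with 99.9% of genes tested showing a smaller difference. The body rose by 6.07 kb (SE 0.519, adjusted p = 0.00499). Both measures met the coverage filter through ASC alone, and the FISC values have no spread. The ASC end-window values lie at or near the 4 kb limit of the start window.

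The widest covered stretch at Traf1 was a region of 8.76 kb, chr2:34956420-34965181, running from 14.7 kb past the gene's lower-coordinate end, inside the gene, to 3.37 kb upstream of its start. It was covered over 8.10 and 8.76 kb in ASC, against 0 and 0 kb in FISC. In ASC replicate 2 it was a single peak, which ranked 82 of 54700 by width, and in ASC replicate 1 it was split into 2. The Traf1 promoter printed above lies inside it and holds no kappaB match. Inside the gene, chr2:34953306-34955151 was covered over 1.604 and 1.812 kb in ASC, against 0 and 0 kb in FISC, and chr2:34955383-34956144 over 0.496 and 0.760 kb in ASC, against 0 and 0 kb in FISC. Flanks held 4.90 and 7.37 kb in ASC, against 1.78 and 1.27 kb in FISC, 4.02 times as much in the mean (4.61 kb, SE 0.813, limma adjusted p = 0.00526). The end-window and body calls were lost without FISC replicate 1 (adjusted p = 0.0930 and 0.0805 by limma) or FISC replicate 2 (0.0924 and 0.0797), with differences unchanged at 3.94 and 6.07 kb.

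Icam1 (chr9:21015940-21028814) encodes an adhesion molecule that leukocytes bind, and its calls lay just past the threshold. End windows held 0.454 and 0.532 kb in ASC, against 0.2 and 0 kb in FISC. The rise of 0.393 kb (SE 0.104, limma adjusted p = 0.0462) was not at the start, where 0.254 and 0 kb in ASC overlapped 0.2 and 0 kb in FISC, and windows at annotated starts gave 0.0270 kb (adjusted p = 0.887 by limma). It was lost without ASC replicate 1 (adjusted p = 0.141 by limma), ASC replicate 2 (0.212), FISC replicate 1 (0.0967) or FISC replicate 2 (0.147). Its body was covered in ASC replicate 2 alone, over 0.323 kb, and was not tested.

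Icam1 flanks held 7.23 and 9.55 kb in ASC, against 5.64 and 5.84 kb in FISC. They did not overlap and rose by 2.66 kb (SE 0.903, limma adjusted p = 0.0495). Ends of 7 other genes lie there, among them Icam4 and Icam5, and with peaks near such ends left out 1.76 and 2.38 kb in ASC overlapped 1.14 and 1.83 kb in FISC (0.591 kb, adjusted p = 0.261 by limma). The flank call was also lost without ASC replicate 2 (1.495 kb, adjusted p = 0.0678 by limma), FISC replicate 1 (0.249) or FISC replicate 2 (0.217), and under scaling the difference was -0.533 kb.

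The cytokine genes had little coverage in FISC, and most of their ASC coverage lay outside the windows at their starts. Il1b (chr2:129364569-129371164) encodes interleukin 1 beta, a cytokine that activates NF-kB and is induced by it. Its flanks, with no end of another gene, held 2.71 and 3.06 kb in ASC, against 0 and 0 kb in FISC. The rise of 2.88 kb (SE 0.208) had a limma adjusted p of 4.5e-04. It came from 3 regions covered in both ASC libraries and in neither FISC library, chr2:129330007-129331489 beyond the far end (1.32 and 1.36 kb in ASC) and a pair from 33.1 kb upstream of the start (0.268 and 0.264 kb, and 1.12 and 1.44 kb in ASC). On lists of equal covered length these flanks had too little coverage to be tested.

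The body of Il1b held 0.744 and 1.20 kb in ASC, against 0.247 and 0.2 kb in FISC. It rose by 0.749 kb (SE 0.190, limma adjusted p = 0.0395), a call lost without FISC replicate 1 (0.2) or replicate 2 (0.214). This coverage belonged to 1 region found in all 4 libraries, whose FISC peaks were the only ones of that condition within 50 kb. On lists of equal covered length, which drop the ASC peaks there, the difference was -0.224 kb (adjusted p = 0.0170 by limma). End windows held 0.249 and 0.582 kb in ASC, against 0 and 0 kb in FISC, a difference of 0.416 kb that was not called (limma adjusted p = 0.0675; 0.0152 without ASC replicate 1 and 0.0323 without ASC replicate 2).

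Il33 (chr19:29925113-29960718) encodes interleukin 33, an alarmin that damaged cells release. Its flanks held 5.37 and 6.70 kb in ASC, against 0 and 0.353 kb in FISC. The groups lie far apart, the rise was 5.86 kb (SE 0.507, limma adjusted p = 5.8e-04; 4.70 kb under scaling) and 93.2% of genes tested had a smaller difference. On lists of equal covered length it was 0.537 kb (adjusted p = 0.433 by limma). Of 13 regions within 50 kb, 8 were covered in both ASC libraries and in neither FISC library. All of these lie upstream, between -38.5 and -1.32 kb from the gene's start, and the widest, chr19:29916340-29918455, was covered over 1.51 and 2.12 kb in ASC.

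The end windows of Il33 held 0.5 and 0.289 kb in ASC, against 0 and 0 kb in FISC, a rise of 0.395 kb (SE 0.100, limma adjusted p = 0.0424) that was lost without FISC replicate 1 (0.180) or replicate 2 (0.189), without the trend (0.0800) and with genes covered in 1 library kept (0.0549). The body went the other way, with 0.382 and 0.472 kb in ASC, against 0.689 and 0.552 kb in FISC. Both ASC libraries were lower there, by a difference of -0.194 kb that was not called (limma adjusted p = 0.187; -0.447 kb and 0.0301 under scaling). That body coverage was 1 region, chr19:29948363-29949184, present in all 4 libraries.

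**Figure D4:**
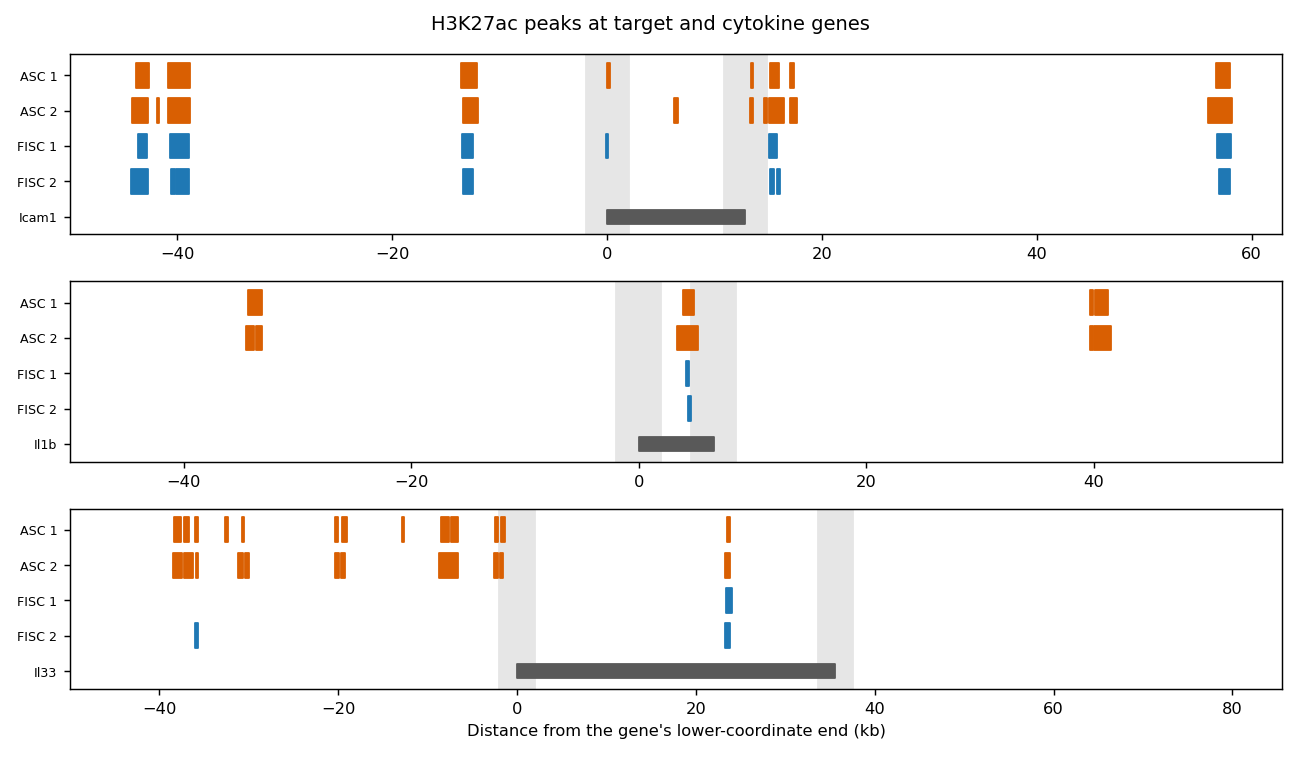
Peaks of each library (orange ASC, blue FISC) at Icam1, Il1b and Il33, by distance in kb from the gene's lower-coordinate end; dark bars are genes and grey bands the end windows. Icam1 has most of its regions in both conditions, while the flanks of Il1b and the upstream side of Il33 hold peaks mostly in ASC.

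Taking the 4 lists as one set of regions (overlap of at least 1 base), 122 regions lay within 50 kb of the members. Of these, 32 (26.2%) were covered in both ASC libraries and in neither FISC library, 2 (1.64%) in both FISC libraries and in neither ASC library, and 40 (32.8%) in all 4. At all protein-coding loci the shares were 18.9%, 7.06% and 28.7% of 63774 regions. The members differed among themselves, with ASC-only regions making up 3 of 4 at Il1b, 8 of 13 at Il33 and 7 of 13 at Traf1, but 0 of 11 at Rela, 1 of 12 at Relb and 1 of 7 at Nfkb2. Nfkb1 had 5 of 19, Nfkbia 3 of 15, Icam1 2 of 11 and Tnfaip3 2 of 17. On lists of equal covered length, which keep fewer ASC than FISC peaks, the counts were 3 ASC-only and 12 FISC-only regions. Without ASC replicate 1 the ASC-only count was 52, and without FISC replicate 1 or 2 the FISC-only count was 7 or 6.

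In the wider pathway, 71 further genes were grouped by role, and 69 were tested in at least 1 measure. Of these, 49 rose in some measure and 1 fell, with 56.7% and 10.1% of all genes. End windows rose at 21 of 61 tested, bodies at 23 of 33 and flanks at 32 of 64, beside the 26.5%, 42.8% and 46.0% of all genes given above. These directions depend on scaling. Divided by total covered length, 5 rose and 22 fell in end windows, 15 and 3 in bodies, and 13 and 14 in flanks. The scaled shares of all genes given above stand beside these counts and beside the scaled counts by role below. The median differences were 0.368, 1.30 and 1.62 kb, beside 0.304, 0.526 and 0.963 kb for all genes. As for the members, no call in end windows or bodies held without either FISC library. Without ASC replicate 1 or 2 the end windows gave 6 and 5 higher genes, and flanks gave 20 without ASC replicate 2 and 15 without either FISC library.

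**Figure D5:**
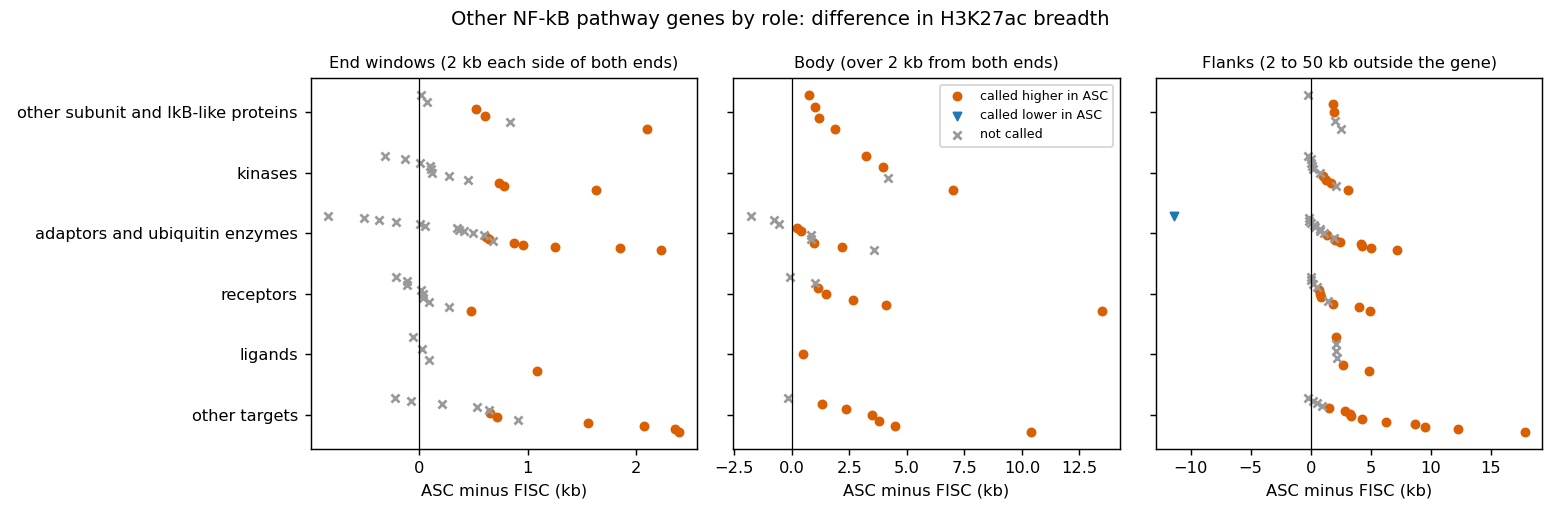
Differences in breadth (ASC minus FISC, kb) of the other pathway genes by role, 1 point per gene tested (orange circles called higher, blue triangle called lower, grey crosses not called). The right-most points of the flanks are targets, Csf1 at 17.9 kb and Ccl2 at 12.3 kb, and the triangle is Tnip1 at -11.4 kb; divided by total covered length, 22 genes in end windows, 3 in bodies and 14 in flanks were lower in ASC.

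Of 6 other subunit and IkB-like genes, 3 of 6 tested rose in end windows, 4 of 4 in bodies and 2 of 5 in flanks. Of the bodies, 4 and 4 were covered in ASC, against 2 and 2 in FISC, so some could not have been lower. Beside these stand 26.5%, 42.8% and 46.0% of all genes. Scaled, 1 was higher and 1 lower, then 2 and 0, and 1 and 1. Nfkbie, which encodes a further IkB inhibitor, had 3.87 and 4.18 kb in its end windows in ASC, against 2.11 and 1.74 kb in FISC (limma adjusted p = 0.00478). Nfkbiz, an IkB-like nuclear cofactor, had 1.59 and 2.14 kb in flanks in ASC, against 0 and 0 kb in FISC (0.00116). The body of Nfkbiz rose by 1.85 kb, a call lost under scaling (0.553 kb, limma adjusted p = 0.228) and at equal covered length (1.74 kb, 0.0516). Nfkbib, another inhibitor, had 2.59 and 2.86 kb in end windows in ASC, against 2.08 and 2.15 kb in FISC (0.0460; -0.485 kb scaled), and Nfkbid was not called in any measure.

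Of 11 kinase genes, 3 of 11 rose in end windows, 3 of 4 in bodies and 4 of 11 in flanks. The shares of all genes were 26.5%, 42.8% and 46.0%. Scaled, 0 were higher and 5 lower, then 2 and 0, and 1 and 4. Map3k14, the kinase that starts the non-canonical branch, had 3.36 and 3.91 kb in end windows in ASC, against 2.08 and 1.93 kb in FISC (limma adjusted p = 0.00974), a call lost under scaling (0.3999 kb, 0.120) and at equal covered length (-0.365 kb). Tbk1, a kinase related to the IkB kinases, had 2.76 and 3.04 kb in ASC, against 2.29 and 1.96 kb in FISC (0.0389; -0.340 kb scaled). Map3k7, which activates the IkB kinases, had 2.66 and 2.58 kb in ASC, against 1.98 and 1.78 kb in FISC (0.0228; -0.253 kb scaled). Ripk1 was not called in any measure, with 1.27 and 1.17 kb in ASC, against 1.15 and 1.04 kb in FISC, though its flanks were called lower under scaling (-3.93 kb, limma adjusted p = 0.00196).

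Of 19 genes for adaptors and ubiquitin enzymes, 7 of 19 rose in end windows and 4 of 10 in bodies. In flanks 7 of 17 rose and 1 fell. The shares of all genes that rose were 26.5%, 42.8% and 46.0%, and 5.71% fell in flanks. Scaled, 1 was higher and 9 lower, then 3 and 2, and 1 and 5. Tank, an adaptor that binds TRAF proteins, had 2.37 and 2.08 kb in end windows in ASC, against 0 and 0 kb in FISC (limma adjusted p = 0.00229). Traf2, an adaptor that the Traf1 protein binds, had 3.77 and 3.69 kb in ASC, against 1.92 and 1.85 kb in FISC (0.00295), a call lost under scaling (0.659 kb, 0.0623). Cyld, a deubiquitinase that limits the pathway, had 8.92 and 10.2 kb in flanks in ASC, against 2.84 and 1.95 kb in FISC (7.23e-04). The end windows of Cyld rose by 1.25 kb, a call lost under scaling (0.268 kb, limma adjusted p = 0.373) and kept at equal covered length (1.14 kb, 0.0208). Tnip1, a partner of the Tnfaip3 enzyme, was the gene that fell, with 4.23 and 7.38 kb in flanks in ASC, against 16.7 and 17.7 kb in FISC (-11.4 kb, SE 1.38, adjusted p = 0.00138 by limma); it was singled out after its values were seen. Traf5 was not called, with 1.07 and 1.78 kb in end windows in ASC, against 2.28 and 2.24 kb in FISC, but was called lower there under scaling (-1.75 kb, limma adjusted p = 0.00224) and at equal covered length (-1.73 kb, 0.0458).

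Of 12 receptor genes, 1 of 9 tested rose in end windows, 5 of 7 in bodies and 6 of 11 in flanks. Beside these stand 26.5%, 42.8% and 46.0% of all genes. Scaled, 0 were higher and 4 lower, then 4 and 0, and 3 and 0. Il1rap, the shared partner chain of receptors for interleukins 1 and 33, had 1.15 and 1.10 kb in its body in ASC, against 0 and 0 kb in FISC (limma adjusted p = 0.00487). The end windows of Il1rap rose by 0.477 kb, a call lost under scaling (0.0841 kb, limma adjusted p = 0.571) and at equal covered length (-0.138 kb, 0.799). Tnfrsf1b, a receptor of tumour necrosis factor, had 5.84 and 6.68 kb in its body in ASC, against 2.27 and 2.02 kb in FISC (0.00619), but was called lower there at equal covered length (-1.80 kb, limma adjusted p = 0.0213). Tnfrsf1a, the other such receptor, had 6.01 and 6.66 kb in flanks in ASC, against 2.62 and 1.96 kb in FISC (limma adjusted p = 0.00134). Its end windows differed by -0.216 kb, which was not called. Under scaling they were called lower (-1.35 kb, limma adjusted p = 0.00440). Tlr4, the receptor of lipopolysaccharide, was not called in any measure, with 2.52 and 2.60 kb in end windows in ASC, against 2.78 and 2.58 kb in FISC (scaled: called lower by limma, -1.33 kb, adjusted p = 0.00565).

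Of 7 ligand genes, 1 of 4 tested rose in end windows, 1 of 1 in bodies and 3 of 6 in flanks. The body was that of Il18, uncovered in both FISC libraries, so the sign of its difference was set beforehand. The shares of all genes were 26.5%, 42.8% and 46.0%. Scaled, 1 was higher and 0 lower, then 0 and 0, and 2 and 3. The end windows of Tnf, Lta and Il1rn were uncovered in all libraries. Il1a, encoding interleukin 1 alpha, had 5.36 and 5.97 kb in flanks in ASC, against 0.836 and 0.771 kb in FISC (limma adjusted p = 4.77e-04). Tnfsf11, the ligand of the receptor that drives osteoclast formation, had 1.16 and 1.01 kb in end windows in ASC, against 0 and 0 kb in FISC (0.00407). Il18 had 6.36 and 6.09 kb in flanks in ASC, against 3.29 and 3.79 kb in FISC (0.00518; 0.107 without FISC replicate 1, 0.0573 without FISC replicate 2, and 0.588 kb, 0.341, scaled), and Ltb was not called.

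Of 16 other target genes, 6 of 12 tested rose in end windows, 6 of 7 in bodies and 10 of 14 in flanks. Beside these stand 26.5%, 42.8% and 46.0% of all genes. Scaled, 2 were higher and 3 lower, then 4 and 1, and 5 and 1. Csf1, a growth factor of macrophages, had 20.1 and 22.4 kb in flanks in ASC, against 3.01 and 3.81 kb in FISC (limma adjusted p = 4.5e-04). The end windows of Csf1 rose by 2.40 kb, a call lost under scaling (0.410 kb, limma adjusted p = 0.326) and at equal covered length (0.859 kb, 0.499). Ccl2, a chemokine that draws monocytes, had 13.7 and 15.1 kb in flanks in ASC, against 1.93 and 2.27 kb in FISC (4.5e-04). Its end windows held 2.54 and 2.58 kb in ASC, against 0.185 and 0.227 kb in FISC (0.00193). Zc3h12a, an RNase that degrades inflammatory messages, had 3.16 and 3.73 kb in end windows in ASC, against 1.72 and 1.03 kb in FISC (0.0116; 1.31 kb, 0.0960, at equal covered length), and Sod2 was not called.

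Il1b, Icam1 and several of these targets are also used by leukocytes and vessel cells, so the end windows of marker genes were read beside them. All 8 satellite cell markers were covered in each library, summing to 27.1 and 28.6 kb in ASC, against 26.6 and 29.4 kb in FISC, as the label has it. Of 14 myeloid markers, 4 and 5 were covered in ASC, against 4 and 4 in FISC, summing to 4.42 and 6.93 kb in ASC, against 3.02 and 3.03 kb in FISC. The covered ones, each in some library, were Csf1r, Cd68, Fcgr3, Spi1 and Csf3r. Ptprc, Itgam, Lyz2, Adgre1, Cx3cr1, Cybb, Tyrobp, S100a8 and S100a9 were at 0 in all 4. Of 9 endothelial markers, 2 and 2 were covered in ASC, against 2 and 3 in FISC (1.22 and 1.79 kb, against 2.10 and 2.56 kb). Kdr, Tek and Cldn5 were covered in some library, and Pecam1, Cdh5, Tie1, Emcn, Esam and Vwf were at 0. Of 9 fibro-adipogenic and fibroblast markers, 4 and 4 were covered in ASC, against 2 and 2 in FISC (5.52 and 6.52 kb, against 4.57 and 4.77 kb). Ly6a, Dpt, Col3a1 and Pi16 were covered in some library, and Pdgfra, Dcn, Lum, Col1a1 and Clec3b were at 0. Lymphoid markers were covered at 1 and 2 of 8 in ASC, against 1 and 1 in FISC (1.12 and 1.53 kb, against 1.33 and 1.16 kb), and smooth muscle and pericyte markers at 1 and 3 of 7 in ASC, against 5 and 4 in FISC (2.63 and 3.26 kb, against 5.32 and 5.29 kb). In flanks, where the cytokine genes rose, 46.0% of all genes tested rose and 5.71% fell. Myeloid markers rose at 3 of 8 tested, with sums of 49.4 and 59.6 kb in ASC, against 36.2 and 34.4 kb in FISC. Endothelial markers rose at 3 of 7 tested (24.1 and 29.2 kb in ASC, against 13.8 and 14.3 kb in FISC) and lymphoid ones at 4 of 8 (21.7 and 26.7 kb, against 20.1 and 19.0 kb). Smooth muscle and pericyte markers rose at 5 of 7 and fell at 1 (21.9 and 27.6 kb in ASC, against 21.9 and 21.7 kb in FISC). Fibro-adipogenic and fibroblast markers rose at 2 of 8 and fell at 2 (31.9 and 38.5 kb, against 30.7 and 32.0 kb), and satellite cell markers rose at 3 of 8 and fell at 1 (85.6 and 94.1 kb, against 78.3 and 77.0 kb). The part that coverage at markers of other cell types has in the results was not tested.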

How the data were processed

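The submitters deposited 4 narrow peak lists, 1 per H3K27ac library, replicates not pooled. Per the labels, nuclei were sonicated, antibody-bound DNA was tagmented in place (ChIPmentation), and a NextSeq 500 read 75 bases from one end. Reads went through bcl2fastq 2.19, BWA, Picard and MACS2 on mm10, per the submitters' processing notes. Other versions, peak settings and the use of the inputs were not given in the sources used here. In the deposited lists the fold enrichment is a ratio at the summit, and the deposited p and q are −log10 values. The deposited score equals 10 times −log10 q, cut to an integer. These served only to filter and order peaks in alternatives. Depth, signal and peak settings all bear on how broad a list is.

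Covered kb per gene and measure was computed from the intervals with Python 3.11.15 (numpy 2.4.6, pandas 2.3.3). It was fitted on the linear scale without scaling with limma 3.58.1 in R 4.3.3 (eBayes with trend), for genes covered in at least 2 of 4 libraries. P-values were Benjamini-Hochberg adjusted over all genes tested. The code was tested on simulated data, with far fewer genes changed than were called in these data. In end windows it called 12 of 50 genes given 1 kb more in ASC and 34 of 50 given 2 kb. In flanks it called 15 of 50 given 3 kb and 33 of 50 given 6 kb. A difference that was not called is thus not shown to be absent. The members and the lists of pathway and marker genes were chosen with earlier results of these data known. In each role of the pathway the genes named are up to 3 called ones with the largest end-window difference and 1 not called. Sequences, starts and strands are RefSeq's on GRCm38.p6. Alternatives changed windows, flank limits, peak thresholds, scaling, list length, the coverage filter, neighbours' ends, the replicate block and single libraries.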

Additional observations from a re-analysis of the deposited data

How the results depend on the processing

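With 2 libraries per condition and no read depth in the files, calls rest on small spreads. The 4 members called in end windows became 2 with genes covered in 1 library kept, peaks of fold 5 or of −log10 q 5 and above, lists of equal peak number, windows of 1 kb or no trend, and 1 with genes covered in all 4. Without 1 library each, end windows gave 0 to 3 members and bodies 0 to 4. The 7 flank members became 2 on lists of equal covered length, and 5 to 7 without 1 library each. The 32 ASC-only regions became 3, and 33 to 52 without 1 library each. The 2 FISC-only regions became 12 on lists of equal covered length, 1 at the stricter q, and 2 to 7 without 1 library each. The cause was not tested.

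Some differences that were not called changed sign. Nfkb1 end windows were 0.602 kb with windows of 5 kb. Rela end windows were 0.332 kb at the stricter fold, 0.0380 kb at the stricter q, 0.118 kb with windows of 1 kb, and -0.472 to 0.296 kb without 1 library each. Tnfaip3 end windows were -0.0405 kb with windows of 1 kb and -0.633 kb scaled, and Relb end windows -0.566 kb scaled. Nfkb2 bodies were -0.499 kb scaled, and Nfkb2 flanks -0.464 kb scaled, -0.979 kb at equal covered length and -0.125 kb without other ends. Rela flanks were -0.358 kb within 20 kb, -0.0370 kb by nearest end and -2.23 kb scaled. Relb flanks were -1.27 kb at equal covered length, -0.265 kb at equal peak number, -3.42 kb within 100 kb, -3.78 kb scaled, -0.154 kb at the stricter q and -0.409 to 1.003 kb without 1 library each. Of called ones, Icam1 flanks were -0.533 kb scaled and Il1b bodies -0.224 kb at equal covered length. The cause was not tested.

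Nothing in the labels ties libraries of the same replicate number together, and deviations of same-numbered libraries correlated at -0.0231 in end windows, 0.0587 in bodies and -0.124 in flanks. With the replicate block, 2 members were called in end windows (Icam1, adjusted p = 0.0741 by limma, and Il33, 0.0612, were lost), 4 in bodies and 7 in flanks. The crossed block, chosen after seeing the data as were the region alternatives without 1 library or with equal lists and the windows at annotated starts, called 8 members in flanks.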
